A study of Rattus norvegicus with 13 samples.

Results

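The weak default sites of the Prdm9 knockout are 12011 autosomal windows in which DNA double-strand breaks (DSBs) were detected with a low strength in the testis of a rat without PRDM9, and in which strength stayed under set limits in 4 other rats. They were chosen by the hotspot strength that the authors deposited for each library. A weak default site has a strength of 20 to 60 in the knockout, of 15 or less in each of the Prdm9 heterozygote, wild-type SHR and BN, and of 50 or less in WKY. These 12011 windows were taken from 91120 on chromosomes 1 to 20 and from 96640 in the whole table.

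DSBs were mapped by single-stranded DNA sequencing (SSDS) of fragments bound by DMC1, the meiotic recombinase that coats the resected ends of DSBs. All animals were adult males and the tissue was testis. The 5 libraries were from wild-type SHR/OlaIpcv (spontaneously hypertensive rat, SHR), SHR/OlaIpcv with genotype Prdm9+/- (KO/wt), SHR/OlaIpcv with genotype Prdm9-/- (KO/KO), wild-type WKY and wild-type BN/RIJHsd (BN). Each condition has 1 library, so no difference between conditions or classes of sites has a replicate check, no test between animals could be run, and no p-value is given. Intervals on shares are Wilson 95% intervals, those on medians are 95% intervals from binomial order statistics, and all of them cover only the counting of windows. Strength takes integer values, negative ones included. Its definition is not given in the sources used here, and the depth of each library is unknown.

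PRDM9 is a histone methyltransferase of meiotic cells whose zinc fingers bind DNA and thereby place trimethylation of lysine 4 of histone H3 (H3K4me3) at future DSB sites. The allele of Prdm9 is shared by SHR and WKY and differs in BN. Without PRDM9, the DSB machinery of the mouse is known to use H3K4me3 that is present for other reasons, for example at gene promoters, and such places are called default sites. The KO/KO male was homozygous for a genomic deletion named KO39, which removes part of an exon encoding the PR/SET (methyltransferase) domain and part of the adjoining intron, and the wild-type SHR male was its littermate. For the KO/wt library, the deletion is not given in the sources used here. The lesion is shown because the absence of this protein defines the library in which the sites were detected. In the cDNA sequences of the study, which hold no intron, 29 bases are lost, given in capitals in the wild-type line and placed as far to the 3′ side as the letters allow, and 29 is not a multiple of 3.
wild-type SHR: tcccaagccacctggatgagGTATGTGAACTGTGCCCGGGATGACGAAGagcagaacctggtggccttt
KO39: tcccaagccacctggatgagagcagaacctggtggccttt
Sequences of the weak default sites themselves are not printed, since no genome of the rn5 assembly was used here.

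The hotspot calls, which the rule did not use, were made from the same reads and are given as a description of the sites. Of the 12011 weak default sites, 12006 had been called as a hotspot in KO/KO, or 99.96% (99.90 to 99.98%), against 38.8% of all autosomal windows. In the other libraries 4 were called in KO/wt, 2 in WKY and 0 in wild-type SHR and in BN, and a count of 0 allows a share of up to 0.0250% if 3 counts of the total are taken as the limit. The corresponding shares of all autosomal windows were 21.6%, 38.3%, 21.8% and 20.8%. Calls and strengths come from the same libraries, so neither these low counts nor the high share in KO/KO is a finding beyond the choice of the windows. A window enters the table by a call in at least 1 library, and the weak default sites are therefore almost all hotspots called in KO/KO alone.

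The weak default sites called in KO/KO made up 33.9% of its 35375 autosomal hotspots and held 12.8% of their summed strength. For comparison, windows with a strength above 60 and below 150 in KO/KO under the same limits are called intermediate default sites (7872), and all windows with a strength of 150 or more in KO/KO, whatever the other libraries show, are called strong default sites (7179). The called strong default sites were 18.9% of the hotspots and held 51.3% of the strength. There were 1.67 weak sites per strong site.

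Neither bound of the range falls in a gap. The commonest strength among the weak default sites was 28, with 399 windows. Just inside the lower bound 245 windows had a strength of 20, and just outside it 196 had 19. At the upper bound 193 windows had a strength of 60 and 180 had 61. All 196 windows at 19 and all 180 at 61 had been called in KO/KO. The limit in KO/wt was exceeded by few KO/KO hotspots of low strength and by many of high strength. Among called windows with a strength of 20 to 60, 7.24% exceeded it, against 20.1% in the intermediate range and 4004 of the 6674 called strong sites. The strong sites past it stay in their class, which has no limits. The shares past the limit in the other libraries varied less over these 3 ranges, from 3.59 to 7.19% for wild-type SHR, from 12.9 to 17.7% for BN and from 6.28 to 6.78% for WKY.

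In KO/KO the weak default sites had strengths with a median of 37, and 90% of them lay between 22 and 57. In KO/wt the median was 5, with 90% of sites between -3 and 13. Wild-type SHR had a median of 1 (-8 to 9), BN one of 7 (-4 to 14) and WKY one of 17 (-14 to 42). These values chose the sites and are given as a description. Scaling between libraries is unknown, and the median strength of autosomal hotspots was 210 in WKY but 64 to 72 in the other 4 libraries. In wild-type SHR 43.2% of the weak default sites had a strength of 0 or less, against 17.9% in KO/wt. At the intermediate default sites the median was 7 in KO/wt and 1 in wild-type SHR, under the same limits. Within the weak sites the mean KO/wt strength went from 3.21 at KO/KO strengths of 20 to 25 (1935 sites) to 5.02 at 51 to 60 (2110 sites), while the mean in wild-type SHR was between 0.787 and 1.24 in all 5 steps of strength. The medians changed less, from 4 to 5 in KO/wt, and were 1 in wild-type SHR at every step.

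**Figure D1:**
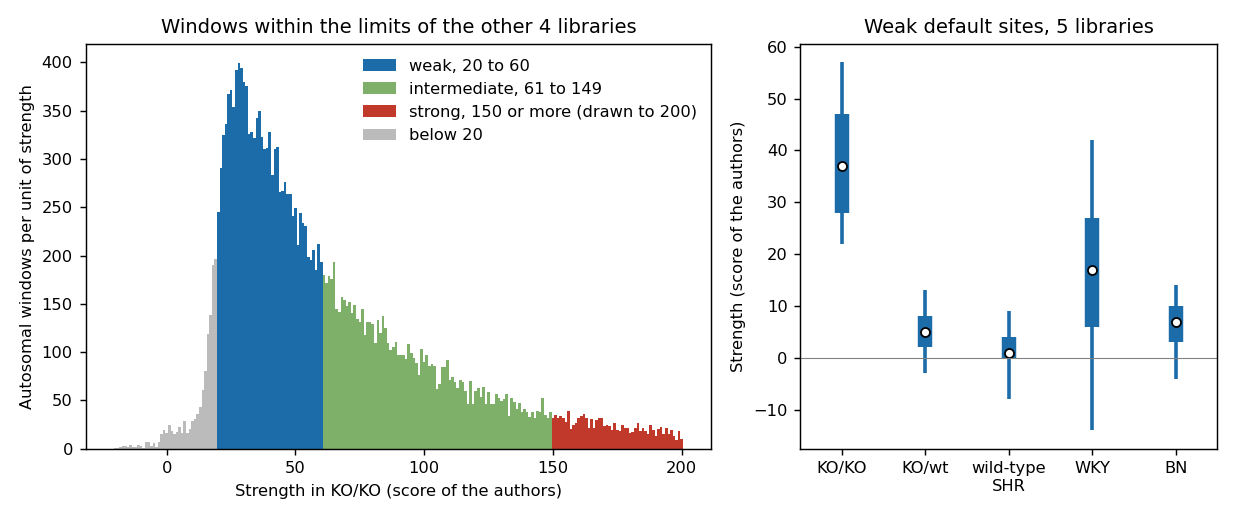
Left, number of autosomal windows at each whole value of KO/KO strength among windows within the limits of the other 4 libraries, coloured by class. The weak class runs over the peak at 28 and is cut from a continuous slope at 60. Right, strength of the 12011 weak default sites in each of the 5 libraries, with the median (point), the middle 50% (thick bar) and the middle 90% (thin bar).

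The distribution over chromosomes was uneven and differed from that of the strong default sites. The extent of a chromosome was measured from its first to its last window of any library, 2741 Mb in all. On average there were 4.38 weak default sites per Mb. Chromosome 12 had 9.40 per Mb (511 sites) and chromosome 20 had 8.69 (501 sites), whereas chromosome 2 had 2.97 (847 sites) and chromosome 4 had 3.03 (753 sites). The highest density was 3.16 times the lowest (95% interval from the counts 2.83 to 3.54). Chromosome 10 followed with 7.32 per Mb (810 sites). Chromosomes 12, 20 and 10 were also the highest for intermediate sites, with 4.95, 3.87 and 3.76 per Mb. The same held for all KO/KO hotspots, with 21.2, 22.5 and 17.1 per Mb, so this is not particular to the weak sites. Without chromosomes 12 and 20 the ratio was 2.46, with chromosome 10 the highest.

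Strong default sites were distributed differently. Their density lay between 1.88 per Mb on chromosome 1 and 3.64 on chromosome 20, and chromosomes 10 and 12 had only 2.29 and 2.58. Over the 20 autosomes the densities of weak and strong default sites had a Spearman correlation of 0.20 (Pearson 0.14), against 0.78 (0.88) for weak and intermediate sites. Without chromosomes 12 and 20 these were 0.10 (0.02) and 0.70 (0.77). The densities come from the same library and share the extent of each chromosome, so that these are descriptions without a test. Both densities were lower on longer chromosomes, with a Spearman correlation with extent of -0.57 for weak and -0.71 for strong sites. The strong class also differs from the other classes in having no limits in the other libraries, which 2260 of its 7179 sites meet. Chromosome 12 had 3.65 weak sites per strong site and chromosome 10 had 3.20, while chromosome 18 had 1.10. All 20 autosomes had more weak than strong and more weak than intermediate default sites.

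As a share of the KO/KO hotspots of a chromosome, the weak sites ranged from 27.6% on chromosome 18 (95% interval 25.2 to 30.1%) to 44.3% on chromosome 12 (41.4 to 47.2%). Chromosome 10 had 42.7% (40.5 to 44.9%) and chromosome 20 had 38.6% (36.0 to 41.3%).

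**Figure D2:**
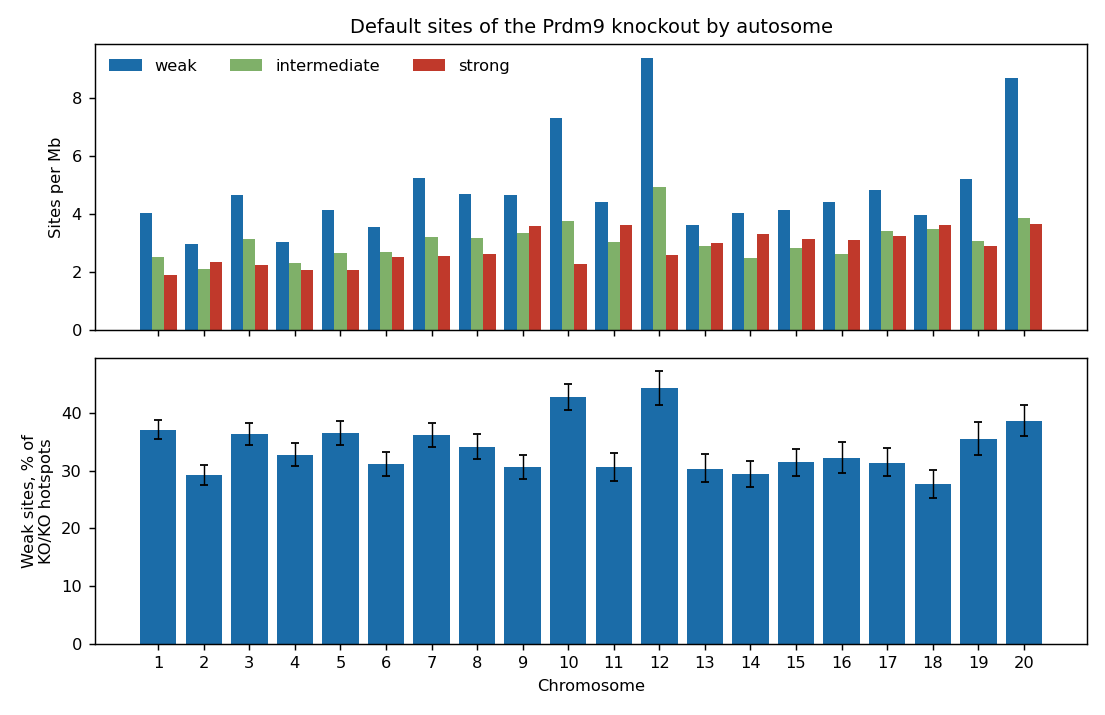
Top, density of weak, intermediate and strong default sites on each autosome in sites per Mb. Bottom, weak default sites called in KO/KO as a percentage of the KO/KO hotspots of the chromosome, with Wilson 95% intervals. Chromosomes 10, 12 and 20 stand highest for the weak sites in both panels, and for the intermediate sites in the top panel. For the strong sites chromosome 20 is high and chromosomes 10 and 12 are not.

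Weak default sites were more frequent toward the end of the chromosome with the higher coordinates. In the last 10 Mb of the 20 autosomes, counted back from the end of the last window, there were 1419 weak sites, or 11.8% (11.2 to 12.4%). The same stretch holds 7.30% of the total extent and 9.21% of all autosomal windows. Of the intermediate sites 7.76% were there (7.19 to 8.37%), of the strong sites 8.79% (8.16 to 9.47%) and of the WKY hotspots 8.18% (7.90 to 8.48%). All KO/KO hotspots together, the weak ones included, had 10.6% there (10.3 to 10.9%). For both ends joined the share was 17.4% for the weak sites and 18.9% for windows of the same KO/KO strength without the limits in the other libraries. The share was higher in weak than in intermediate sites on 16 of 20 autosomes, the exceptions being 1, 6, 15 and 20. Chromosomes 12 and 19 had the largest part of their weak sites there, 26.8% and 23.7%. They are short, with 54.4 and 72.9 Mb, so that 10 Mb is a large part of them. Chromosome 5, with 177 Mb, had 13.6% there. The share of weak sites exceeded the share of the extent on 17 of 20 autosomes, all but 6, 17 and 20. In the first 10 Mb there were 673 weak sites, a share below the 6.42% of all autosomal windows.

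In steps of 5 Mb from the end, the density of weak sites was 6.15 per Mb in the outermost step and 8.04 in the next. It stayed between 6.24 and 6.54 from 10 to 30 Mb, lay between 4.11 and 5.05 from 30 to 50 Mb, and was 3.61 in all that lies farther away. The stretch beyond 50 Mb holds little of the dense chromosomes 12 and 20, which span 54.4 and 57.6 Mb. Without them the density was already 3.62 at 40 to 45 Mb and 2.99 at 45 to 50 Mb, so the last fall depends on which chromosomes are included. Intermediate sites had 2.62 per Mb in the outermost step, 3.49 in the next and 2.47 beyond 50 Mb. Strong sites had 1.89 per Mb in the outermost step, 4.42 in the next and 2.27 beyond 50 Mb. In the outermost 5 Mb there were therefore 3.25 weak sites per strong site, against 1.51 to 1.83 in the 9 other steps. This stayed so without chromosomes 12 and 20, where the ratio was 3.02 in the outermost step and at most 1.85 elsewhere. WKY hotspots also had a lower density in the outermost step, 11.8 per Mb against 16.7 in the next. Positions of centromeres and telomeres in rn5 were not used here.

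**Figure D3:**
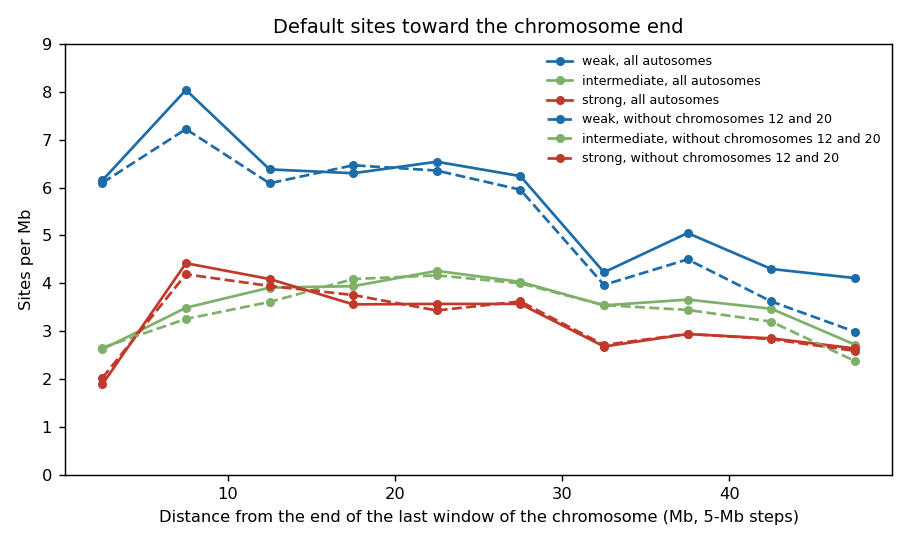
Density of weak, intermediate and strong default sites in sites per Mb, in 5-Mb steps from the end of the last window of each autosome. Solid lines are all 20 autosomes and broken lines leave out chromosomes 12 and 20. From the second step to the outermost, density falls from 8.04 to 6.15 per Mb for weak and from 3.49 to 2.62 for intermediate sites. For strong sites it falls from 4.42 to 1.89.

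Spacing among the weak default sites was short and varied widely. From centre to centre, the median distance to the nearest other weak site was 45.1 kb (43.9 to 46.4 kb), the middle 90% ran from 4.76 to 348 kb, and the closest pair was 1.20 kb apart. For 72.7% of the weak sites (71.9 to 73.5%) another lay within 100 kb, and 59.8% of the autosomal windows of all other kinds had a weak site so near. That share was 70.5% for intermediate and 68.6% for strong default sites, close to that of the weak sites themselves. Intermediate sites, which are fewer, had a median of 69.8 kb (66.8 to 72.5 kb) to the next of their kind, and the spacing of the weak sites was shorter on 19 of 20 autosomes, all but chromosome 18. The number of sites sets such distances in part. On chromosomes 12 and 20 the median spacing of weak sites was 22.7 kb on each, and on chromosome 18 it was 67.5 kb. Windows overlapped another window of the table at 11.7% of the weak sites, against 17.4% of all autosomal windows.

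**Figure D4:**
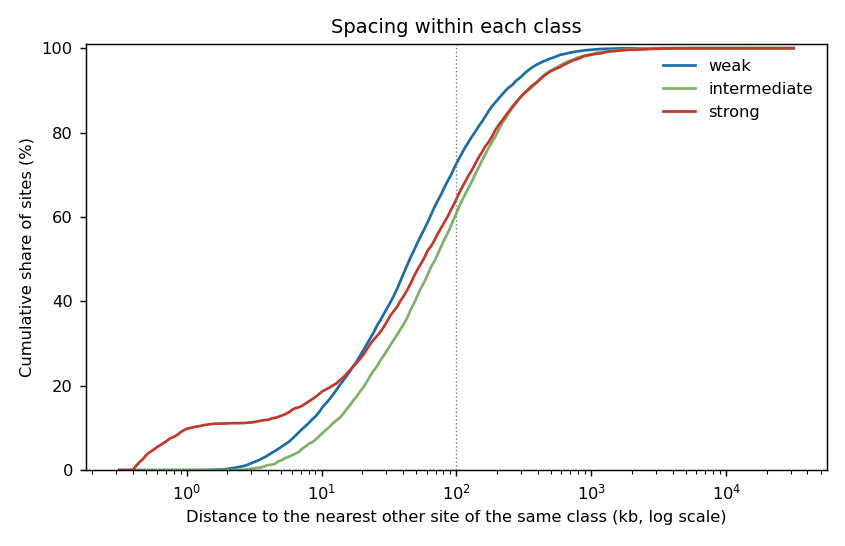
Cumulative share of sites by the distance in kb (log scale) to the nearest other site of the same class, with 100 kb dotted. Of the weak sites 72.7% lie left of the dotted line. The step of the strong sites below 2 kb comes from strong windows that overlap each other.

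Joined across gaps of up to 50 kb, the weak sites formed 8002 groups, of which 5645 were a single site. Groups of 5 or more held 1062 sites, or 8.84% of all, against 2.24% of the intermediate and 4.36% of the strong sites joined in the same way. Both classes have fewer sites, and the number of sites bears on such grouping. The longest such group had 12 weak sites over 195 kb of chromosome 5, from 172718038 to 172913323 (rn5). Their strengths in KO/KO ran from 21 to 41, and the region had 15 KO/KO hotspots with no strong default site. The same window range had 4 hotspots of wild-type SHR. With gaps of up to 100 kb the longest group had 23 weak sites with 1 strong site among them, on chromosome 16 from 19527842 to 20432729.

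The densest surroundings, counted within 500 kb on either side, were those of a weak site on chromosome 12 from 48743072 to 48746072. Its strength in KO/KO was 27. The other libraries gave 39 (WKY), 8 (BN), 8 (wild-type SHR) and 7 (KO/wt), and 31 other weak sites and 6 strong sites lay around it. The median over all weak sites was 6 others, and 291 sites (2.42%) had none. The most isolated one, on chromosome 14 from 50024260 to 50027260 where KO/KO had a strength of 32 and wild-type SHR one of 0, was 3277 kb from the next weak site.

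The main question of distance was whether weak default sites lie beside the strong ones. The median distance to the nearest strong default site was 112 kb (107 to 116 kb), the middle 90% of distances ran from 8.85 to 959 kb, and 5668 weak sites or 47.2% (46.3 to 48.1%) had a strong site within 100 kb. Among all autosomal windows that are not strong sites themselves the share was 43.6%. The order of the classes was graded. Strong sites had another strong site at a median of 57.0 kb (54.2 to 59.1 kb), intermediate sites a strong one at 91.0 kb (88.0 to 94.7 kb), and hotspots of the wild-type animals that are not strong sites themselves at 131 kb in BN (128 to 134 kb), 141 kb in wild-type SHR (138 to 145 kb) and 151 kb in WKY (148 to 154 kb). The weak sites stand between the other default sites and the hotspots of the wild-type animals.

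This order held chromosome by chromosome with few exceptions. The median distance of weak sites to a strong site exceeded that of intermediate sites on 20 of 20 autosomes and fell below that of WKY hotspots on 20 of 20. It fell below that of wild-type SHR hotspots on 19, all but chromosome 10, and below that of BN hotspots on 17, all but chromosomes 10, 19 and 20. In the share within 100 kb of a strong site, weak minus intermediate was -5.43 percentage points (interval of the difference -6.84 to -4.01 points). Part of the short distance between strong sites comes from overlapping windows, since 21.8% of the strong sites overlap another window.

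**Figure D5:**
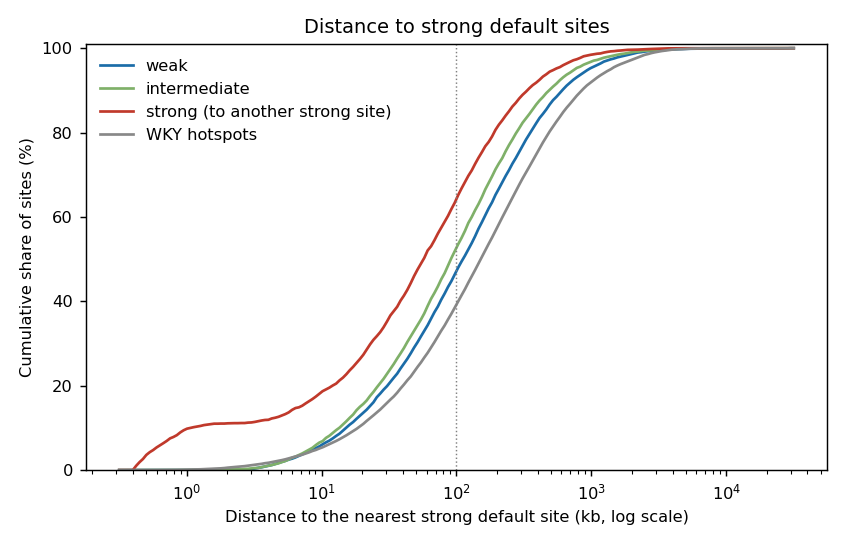
Cumulative share of sites by distance in kb (log scale) to the nearest strong default site, for weak, intermediate and strong default sites and for WKY hotspots. At 100 kb (dotted) the weak sites reach 47.2%, below the intermediate sites at 52.6% and above the WKY hotspots at 39.2%.

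Within the weak class, the median distance to a strong site was 118 kb (107 to 129 kb) for strengths of 20 to 25 and 104 kb (96.4 to 114 kb) for 51 to 60, with overlapping intervals. The rule bounds these strengths, so the comparison is a description. Without the lower bound and the limits, KO/KO hotspots that are not strong themselves had a median strength of 46 within 5 kb of a strong site, 57 at 5 to 10 kb, 53 at 50 to 100 kb and 44 beyond 1000 kb. Weak sites made up 35.9% (32.2 to 39.8%) of these hotspots within 5 kb of a strong site, 40.6% (39.3 to 42.0%) at 50 to 100 kb and 47.0% (44.2 to 49.9%) beyond 1000 kb. The share of intermediate sites was 21.8% within 5 kb, 29.1% at 10 to 25 kb and 21.1% beyond 1000 kb.

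In the 2756 bins of 1 Mb that cover the autosomes, 461 had no weak site and the fullest had 25, on chromosome 8. Bins without a strong site had 1.97 weak sites on average, those with 1 strong site had 4.07, those with 4 to 6 had 6.22 and those with 11 or more had 5.93. The 849 bins without any strong site, 30.8% of all bins, held 13.9% of the weak sites. Of these 849 bins, 32 had 10 or more weak sites. The bin counts of weak sites had a Spearman correlation of 0.64 with those of intermediate sites, 0.51 with strong sites, 0.51 with BN hotspots and 0.43 with WKY hotspots, across bins that are not independent and without a test. Each class was also ranked by its own counts. The fullest 10% of the bins held 30.3% of the weak, 31.1% of the intermediate and 33.9% of the strong sites, and 19.0% of the WKY hotspots. The mean count per bin bears on such shares, and it was 4.36, 2.86, 2.60 and 12.7 in that order. The variance of the counts divided by their mean was 3.73, 2.75, 3.10 and 3.78.

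Median distances from the weak sites to hotspots of the wild-type animals were a little longer than those from the other default sites. The limits bound strength in these same libraries for weak and intermediate but not for strong sites, which bears on the comparison. The nearest wild-type SHR hotspot lay at a median of 41.2 kb (40.1 to 42.3 kb), against 39.2 kb for intermediate and 36.6 kb for strong default sites. The nearest WKY hotspot lay at 24.2 kb (23.7 to 24.9 kb), against 23.0 and 21.9 kb. For BN the nearest hotspot lay at 42.1 kb, against 38.8 and 38.3 kb. Hotspots lay from the next of their own library at 24.1 kb (WKY), 40.1 kb (wild-type SHR) and 38.8 kb (BN). The number of hotspots sets such distances in part, and there were 34872 in WKY, 19898 in wild-type SHR and 18995 in BN.

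The extremes of distance show the range within the class. The weak site nearest to a strong one, on chromosome 16 from 10788381 to 10791381, overlaps it with centres 0.753 kb apart. Its strength was 47 in KO/KO, where it was not called, and 1 in KO/wt, where it was. At the strong site beside it KO/KO had a strength of 518, KO/wt one of 46 and wild-type SHR one of 4. The weak site farthest from a strong one is on chromosome 13 from 1826773 to 1829773, with a strength of 49 in KO/KO and one of 50 in WKY, the limit there. BN had 11, KO/wt 6 and wild-type SHR 5. The next strong site was 28257 kb away, from 30083511 to 30086511, with a strength of 350 in KO/KO. The strongest default site with weak ones within 100 kb lies on chromosome 13 from 49430953 to 49433953, where KO/KO had a strength of 2048, KO/wt one of 183 and wild-type SHR one of 20. The mark for a call in this window is 0 in KO/KO, but 1 in KO/wt and in wild-type SHR. Its weak neighbours had strengths of 42 at a distance of 67.7 kb and 30 at 99.8 kb in KO/KO, and of 6 and 0 in wild-type SHR. An rn5 gene annotation and H3K4me3 values at these windows were not used here.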

How the data were processed

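DSB hotspots were mapped by DMC1 SSDS in testes of 5 animals, 1 library each. H3K4me3 and input libraries were not analysed here. The authors mapped reads to rn5 with a modified bwa (0.7.12), kept uniquely placed type 1 single-stranded fragments whose read pairs both passed a quality threshold, and called hotspots on these. How windows were merged is not given in the sources used here. In the deposited table, hotspot strength is a score whose scaling is not stated, and a second value of 1 or 0 marks a call. Of 96640 windows, 96639 span 3000 bp. Coordinates are as deposited, and whether counting starts at 0 or 1 is not stated. Columns were assigned to libraries by strain and genotype.

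Members, classes and lists were chosen with earlier results of these data known. Distances were taken between window centres on the same chromosome. Windows named in the text were those at the extremes of distance and crowding, and chromosomes those with the highest and lowest density plus 12 and 20. Shares have Wilson intervals, medians have intervals from binomial order statistics, ratios of densities have exact conditional intervals and differences of shares have Newcombe intervals. No depth is known, and windows are not replicates. Alternatives changed the strength range, the limits, the strong class, overlapping windows, calls, chromosomes and ends. Computations were made in Python 3.11.15 (pandas 2.3.3, scipy 1.17.1, numpy 2.4.6; plots with matplotlib 3.10.9). The functions for distances and intervals were tested on simulated data (6 of 6 checks recovered). The distance checks used 91120 simulated windows, and the interval checks used independent random numbers. Groups, bins and classes were not part of these checks.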

Additional observations from a re-analysis of the deposited data

How the results depend on the processing

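No paired analysis was possible because each condition has a single library (1), and nothing was tested. Among 78 values recomputed under other settings, 34 left the 95% interval of the value in the text (for the number of sites, a range of 1.5 times), 44 did not, and 0 changed sign. Only the difference between weak and intermediate sites could change sign, since the other values are counts, shares, distances or ratios. The only alternative chosen after the data were seen was the restriction of strong sites to those called in KO/KO, and it moved nothing. With strengths of 30 to 50, the number of weak sites was 6427, their spacing 91.9 kb and the share with another within 100 kb 52.5%. With stricter limits (5 or less, and 25 or less in WKY) there were 2030 sites, 100% called in KO/KO, 124 kb from a strong site, 44.1% within 100 kb of one, with a spacing of 257 kb, 27.8% with another within 100 kb, 16.2% near the ends and a density ratio of 3.86. With no limits, 92.8% were called, spacing was 32.5 kb, 80.8% had another within 100 kb, 18.9% were near the ends, the density ratio was 2.80 and the difference to intermediate sites -7.38 points. Without the limit in WKY these were 99.4% called, 43.3 kb and 73.9%. In windows that overlap no other, 99.99% were called, spacing was 52.4 kb and 68.5% had another within 100 kb. Without chromosomes 12 and 20, spacing was 47.8 kb, 71.4% had another within 100 kb, 15.5% against 17.4% lay in the first or last 10 Mb and the density ratio was 2.46. Without the chromosome ends, spacing was 48.0 kb and 71.2% had another within 100 kb. Strong sites defined at 100 or more lay at 59.8 kb with 65.0% within 100 kb, and at 300 or more at 452 kb with 17.9% and a difference of -3.25 points. Fewer or more sites change the spacing by construction; other causes were not tested.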

Other observations

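Strengths far below 0 occurred at a small number of weak default sites. In at least 1 of the 4 other libraries 207 of them (1.72%) had a strength below -50. In WKY there were 167 such sites, and 160 of them lay within 5 kb of a WKY hotspot, against 9.52% of the other weak sites. In wild-type SHR all 37, in KO/wt all 34 and in BN all 29 lay within 5 kb of a hotspot of the same library. Of the other weak sites 6.17%, 6.40% and 5.92% lay so near. The limits of the rule have no lower bound, so these sites are members. What the strength subtracts is not given in the sources used here.

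Of the 7179 strong default sites, 505 were not called in KO/KO, and 479 of these had a called KO/KO hotspot with its centre less than 3 kb away.

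The weak default sites not called in KO/KO are 5, named after their values had been seen. Besides the one on chromosome 16 described above, they lie on chromosome 1 from 64549981 (strength 21 in KO/KO and 50 in WKY, called in WKY), chromosome 5 from 174526357 (35 in KO/KO and 13 in KO/wt, called in KO/wt), chromosome 13 from 68876244 (54 in KO/KO and 0 in WKY, called in WKY) and chromosome 15 from 24735724 (54 in KO/KO and 14 in KO/wt, called in KO/wt). A called KO/KO hotspot lay within 1.08 kb of each of them except that on chromosome 1, where it was 96.5 kb away. The only weak site called in both KO/KO and KO/wt is on chromosome 6 from 8876370, with strengths of 29 in KO/KO, 11 in KO/wt and 8 in wild-type SHR.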
